A study of Homo sapiens with 6 samples.

Results

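The baseline transcriptome described here is that of untreated MDA-MB-231/RR cells, the radioresistant form of MDA-MB-231, a human breast cancer line. Its members are all genes of the deposited gene table with a mean of at least 1 TPM (transcripts per 1000000 transcripts) over the 3 control libraries. By that rule 13429 of 46427 genes (28.9%) were members, and 11475 of them (85.4%) were protein-coding. The series set these controls beside cells given both ortho-topolin riboside (oTR), a plant cytokinin riboside, and melatonin, and those co-treated libraries are not used here. The controls received neither compound. How the radioresistant line was derived, and whether it is 1 clone, is not given in the sources used here. Nothing in the labels says that the 3 controls came from separate cultures, so every SD is the spread between these libraries and may be technical. With 1 group there is no comparison of conditions and no test, and all values are descriptions.

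MDA-MB-231 is a widely used model of triple-negative breast cancer, a class defined by the lack of oestrogen receptor, progesterone receptor and amplified HER2. Epithelial cells are held together by E-cadherin and claudins, and transcription factors such as ZEB1 and SNAI1 repress that program in favour of vimentin and other mesenchymal genes. MDA-MB-231 is known as a mesenchymal, claudin-low line, with high CD44 and low CD24 at its surface. TPM is scaled by transcript length, so levels of different genes below are compared only in TPM.

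Estimated counts summed to 56521572, 72309015 and 71937572 in controls 1, 2 and 3. A chi-square of gene counts between each pair of libraries came to 10.8 to 14.9 times its degrees of freedom, so none was counted as the same library deposited again. Repeat preparations of the same RNA could differ as much. The libraries held 13485, 13484 and 13369 genes at 1 TPM or more. At the threshold, 13070 genes reached 1 TPM in all 3 libraries and 781 in only 1 or 2 of them, and 359 of these last were members through their mean. Just inside stood KIAA1614-AS1, PSMD10P2 and RPL23AP25 at mean TPM of 1.002, 1.001 and 1.001, and just outside stood CSRNP3, ZNF112 and FCMR at 0.999, 0.998 and 0.998. A gene listed at 0 can hold up to 3 counts by counting error alone, which is 0.0531 CPM (counts per 1000000 counts) in control 1 and 0.0415 and 0.0417 in controls 2 and 3.

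Members spanned more than 4 orders of magnitude, and a small number of genes held a large share of summed TPM. Of the members, 4781 lay from 1 to under 10 TPM, 7010 from 10 to under 100, 1507 from 100 to under 1000, and 131 at 1000 or more. Those 131 genes held 38.6% ± 0.245 (SD, n = 3) of summed TPM. The 7010 genes from 10 to under 100 TPM held 24.5% ± 0.340. The 100 most abundant genes held 34.7%, 34.8% and 35.1% in the 3 libraries, and 50% of summed TPM was reached with 339, 343 and 326 genes. The median member stood at 18.1 TPM.

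**Figure D1:**
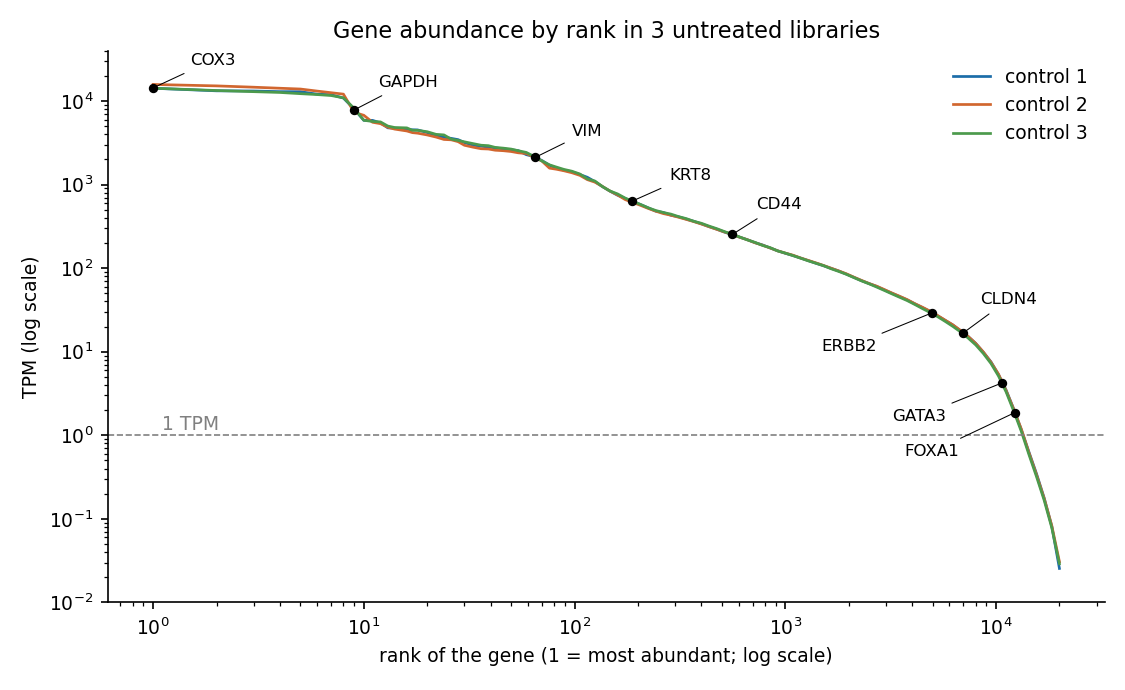
TPM of each gene (y axis, log scale) against its rank within a library (x axis, log scale), 1 line per control library, with black points at the mean TPM and rank of named genes. The 3 lines lie on each other, from COX3 at a mean of 14379 TPM through VIM at 2115 and CD44 at 253 down to FOXA1 at 1.87.

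The most abundant transcripts were those of the mitochondrial genome, which encodes core subunits of the respiratory chain and ATP synthase. COX3, a subunit of cytochrome c oxidase, stood at 14237, 14650 and 14249 TPM. The ATP synthase subunit ATP6 stood at 13258, 15803 and 13373 TPM, and ND2 of complex I at 12936, 15192 and 12671. ND4L, ATP8, COX1, COX2 and ND4 followed between 11910 and 12794 TPM on average. The ranges of neighbours overlapped throughout these 8 genes, so their order is not settled by 3 libraries. ATP8 shares its end with the start of ATP6, and ND4L with that of ND4, so reads in those short overlaps cannot be assigned to 1 gene. The 13 mitochondrial mRNAs held 12.04% ± 0.722 (SD, n = 3) of summed TPM, with control 2 the highest at 12.9%. ND6, the only one encoded on the light strand, stood at 2410 TPM, and ND5 was the lowest at 1358.

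GAPDH, the glycolytic dehydrogenase, led the nuclear genes at 8001, 7327 and 8176 TPM (chromosome 12, 6534517 to 6538371, GRCh38), and its lowest library lay above the highest of every other nuclear gene. FTL, the light chain of the iron store ferritin, stood at 5472, 5573 and 5890 TPM, and EEF1A1, which brings aminoacyl-tRNA to the ribosome, at 5873, 5363 and 5695. Those ranges overlapped with each other and with that of the mitochondrial gene ND3, and not with that of ACTB, the next gene at 4886 TPM. From ACTB down through RPS2, RPS24, RPL5, RPS18, NPM1, TUBA1B and RPLP0 at 4171 TPM, each named gene overlapped its neighbour in this order, and so did ENO1, RPL19, RPL12 and TMSB10, from 3837 to 3682 TPM.

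By function, proteins of the cytosolic ribosome were the largest class fixed for this description. All 79 listed ribosomal protein genes were members, with a median of 1600 TPM, and together they held 14.6% ± 0.570 (SD, n = 3) of summed TPM. The highest was RPS2 at 4736, 4618 and 4827 TPM. The 18 elongation and related factors added 2.68% ± 0.0895, led by EEF1A1, the nucleolar chaperone NPM1 at 4398 TPM and the ribosomal scaffold RACK1 at 2941.

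All 41 listed cytoskeletal and associated genes were members and held 4.80% ± 0.168 (SD, n = 3) of summed TPM. ACTB and ACTG1, the cytoplasmic actins, stood at 4886 and 3261 TPM, the tubulin TUBA1B at 4285, and the actin-sequestering thymosins TMSB10 and TMSB4X at 3682 and 3082. Of 20 glycolytic genes 18 were members and the list held 2.40% ± 0.0853. After GAPDH came ENO1 at 3837, the pyruvate kinase PKM at 2970 and the lactate dehydrogenase LDHA at 2413 TPM, while the testis form LDHC stood at 0.0352.

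All 23 chaperone genes were members with a median of 644 TPM, led by HSPA8 at 2818 and HSP90AA1 at 2658. HSPA1A and HSPA1B, near-identical copies whose reads the authors' estimate divides, stood at 93.6 and 152 TPM. All 23 iron and redox genes were members, and FTL alone held 5645 TPM of their summed 14186. The cystine transporter SLC7A11 stood at 89.4, 94.1 and 75.4 TPM, lowest in control 3. Metallothioneins, small metal-binding proteins, were uneven: MT2A stood at 2606, 2524 and 2528 TPM, MT1E at 638 and MT1X at 142, while the other 7 of 10 family members lay under 1 TPM and 5 of them were listed at 0.

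Promoters of the most abundant genes were set beside the rest, using RefSeq's sequences of 250 bases before to 50 after each start (GRCh38.p14). An entry was found for 15514 of 19659 nuclear protein-coding genes (78.9%). Where a gene has several, the start nearest its most abundant transcript was taken. The start taken lay within 50 bases of the transcript's own in 12610 promoters (81.3%). In the rest the window may miss the start in use. Genes with no reads have no most abundant transcript, so where they have several starts the choice does not reflect use. Motifs searched were TATAAA or TATATA lying from 40 to 16 bases before the start, and a TOP start, the terminal oligopyrimidine tract of translation genes, taken as a C at the start followed by 4 bases that are each C or T. The windows below run from 40 bases before the start through its first 20 transcribed bases, with matches in capitals. They are shown because EEF1A1, RPS18 and RPLP0 hold both motifs, TMSB10 holds only the TATA match, and RPS24 only the TOP start. VIM, less abundant at 2115 TPM, holds neither at the start of its reference transcript.
EEF1A1 (chr6:73521013-73521072, minus strand): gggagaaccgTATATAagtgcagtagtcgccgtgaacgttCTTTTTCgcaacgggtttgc
RPS18 (chr6:33272035-33272094, plus strand): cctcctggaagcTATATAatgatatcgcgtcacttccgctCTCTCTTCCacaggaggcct
RPLP0 (chr12:120201092-120201151, minus strand): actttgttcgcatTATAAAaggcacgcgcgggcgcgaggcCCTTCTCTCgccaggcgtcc
RPS24 (chr10:78033823-78033882, plus strand): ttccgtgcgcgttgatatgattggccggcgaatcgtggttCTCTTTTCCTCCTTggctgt
TMSB10 (chr2:84905616-84905675, plus strand): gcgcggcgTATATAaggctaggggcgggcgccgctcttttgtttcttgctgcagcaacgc
VIM (chr10:17228201-17228260, plus strand): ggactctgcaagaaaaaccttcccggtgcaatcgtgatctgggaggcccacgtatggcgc

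A TOP start was present in 4.64% of all 15514 promoters and in 41 of 92 (44.6%) of those of genes at 1000 TPM or more. Of 63 ribosomal protein genes with an entry, 45 held it (71.4%), as did 9 of the 12 elongation and related factors. None of 19 glycolytic genes held it at the start taken, although GAPDH, ENO1 and PKM are among the most abundant genes. For ENO1 and PKM that start was the one of the leading transcript. For GAPDH it lay 747 bases away, so the start of its leading transcript was not examined. Without the ribosomal proteins, 21.7% of the 46 promoters at 1000 TPM or more held it.

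The TATA match followed abundance in another way, high at both ends. It was present in 4.80% of all promoters on the sense strand (5.21% on either strand), in 11.1% of genes listed at 0, in 1.31% of those from 10 to under 100 TPM, and in 20.7% of the 92 at 1000 or more. NPM1, the membrane-binding annexin ANXA2 and the ribosomal protein RPL3 also held it. Promoters of genes listed at 0 had a median of 6 CpG dinucleotides in 300 bases (quartiles 2 and 18) and those of all members had 28 (quartiles 21 and 36). Of the silent promoters, 12.9% held at least 28. Leading transcripts of genes at 1000 TPM or more had a median length of 945 bases, against 3291 for all coding members. These are descriptions of letters in a window and say nothing of factors that bind there.

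**Figure D2:**
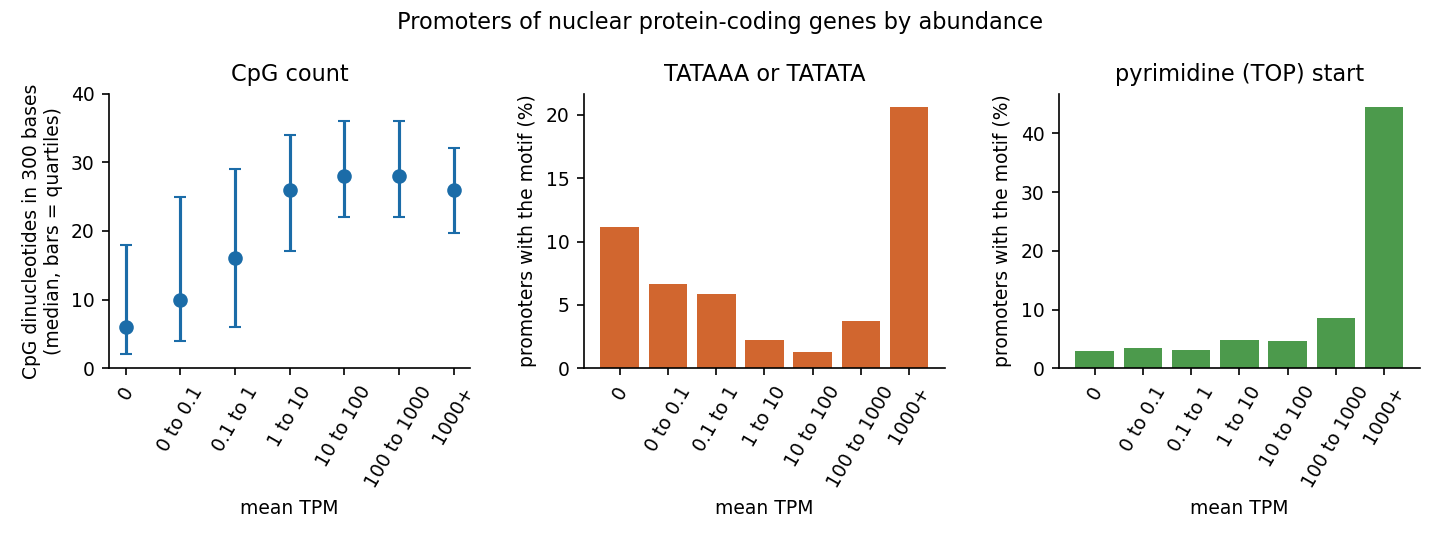
Promoters of nuclear protein-coding genes by mean TPM class (x axis): median CpG count in 300 bases with quartile bars, and the percentage with TATAAA or TATATA and with a TOP start (bars from 0). The median CpG count goes from 6 for genes at 0 TPM to 28 from 10 to under 1000, and the TOP start from 2.86% to 44.6%.

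The cells carried a mesenchymal profile. Of 30 mesenchymal effector genes, 28 were members, 25 reached 10 TPM and the median was 39.1 TPM, beside 58.3% of all protein-coding genes that were members. VIM, the mesenchymal intermediate filament vimentin (chromosome 10, 17228241 to 17237593), stood at 2223, 2037 and 2084 TPM. The galectin LGALS1 stood at 2755, 2403 and 2862, and the matricellular YAP target CCN1 at 1140, 1065 and 1151. AXL, a receptor tyrosine kinase, stood at 342, 397 and 374 TPM and the caveolar protein CAV1 at 346, 346 and 323. Relative to the level of each gene, the libraries lay closer together for VIM, CCN1 and CAV1 than for LGALS1 and AXL.

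The list was not uniformly high. FN1, the matrix protein fibronectin, stood at only 16.1, 15.03 and 15.5 TPM, and the metastasis-associated S100A4 at 15.8, 10.5 and 14.7. The smooth-muscle genes ACTA2 and TAGLN stood at 2.34 and 1.33 TPM. CDH2, the N-cadherin that replaces E-cadherin in many mesenchymal cells, stood at 0.0552, 0.0384 and 0.0148 TPM, which are 6, 6 and 3 estimated counts, and CDH11 was listed at 0. Neither classical mesenchymal cadherin therefore reached the threshold.

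Among mesenchymal transcription factors, 9 of 16 were members (56.25%), a share close to the 58.3% of all coding genes. FOSL1, an AP-1 subunit, stood at 327, 319 and 321 TPM, and the YAP partners TEAD1 and TEAD4 at 73.5 and 69.1. ZEB1 stood at 21.7, 20.7 and 18.4 TPM, SNAI1 at 11.3, 12.2 and 13.9, and SNAI2 at 8.56, 8.67 and 8.38. ZEB2 stood at 0.281 TPM, and TWIST1, TWIST2 and GSC were listed at 0 in all 3 libraries. Among the ZEB, SNAI and TWIST factors named here, the members were thus ZEB1, SNAI1 and SNAI2.

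Epithelial genes were divided. CDH1, E-cadherin (chromosome 16, 68737292 to 68835537), stood at 0.0158, 0 and 0.0243 TPM, or 2, 0 and 5 estimated counts. EPCAM, an epithelial adhesion molecule, stood at 0.299, 0.424 and 0.555 TPM and the claudin CLDN7 at 0.153, 0.331 and 0.110. The small GTPase RAB25 was listed at 0. Of 13 regulators of the epithelial state only KLF5, at 15.2, 16.7 and 15.6 TPM, and GRHL1 at 1.149 were members. ESRP1, GRHL2, OVOL2 and ELF5 were listed at 0 in all 3 libraries.

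Still, 17 of the 30 epithelial adhesion and junction genes were members, a share of 56.7% that is close to the 58.3% of all coding genes. SPINT2, an inhibitor of matriptase, was the highest at 172, 177 and 181 TPM. The desmoglein DSG2 stood at 72.1 TPM, the desmosomal linkers PKP3 at 35.2 and DSP at 24.5, and the claudin CLDN4 at 16.5, 16.7 and 17.1. CLDN3 stood at 1.82 TPM. Of 24 claudin genes 6 were members (25%, beside 58.3% of all coding genes), led by CLDN12 at 30.6. In bulk RNA, fewer cells that express a gene and less RNA per cell cannot be told apart.

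**Figure D3:**
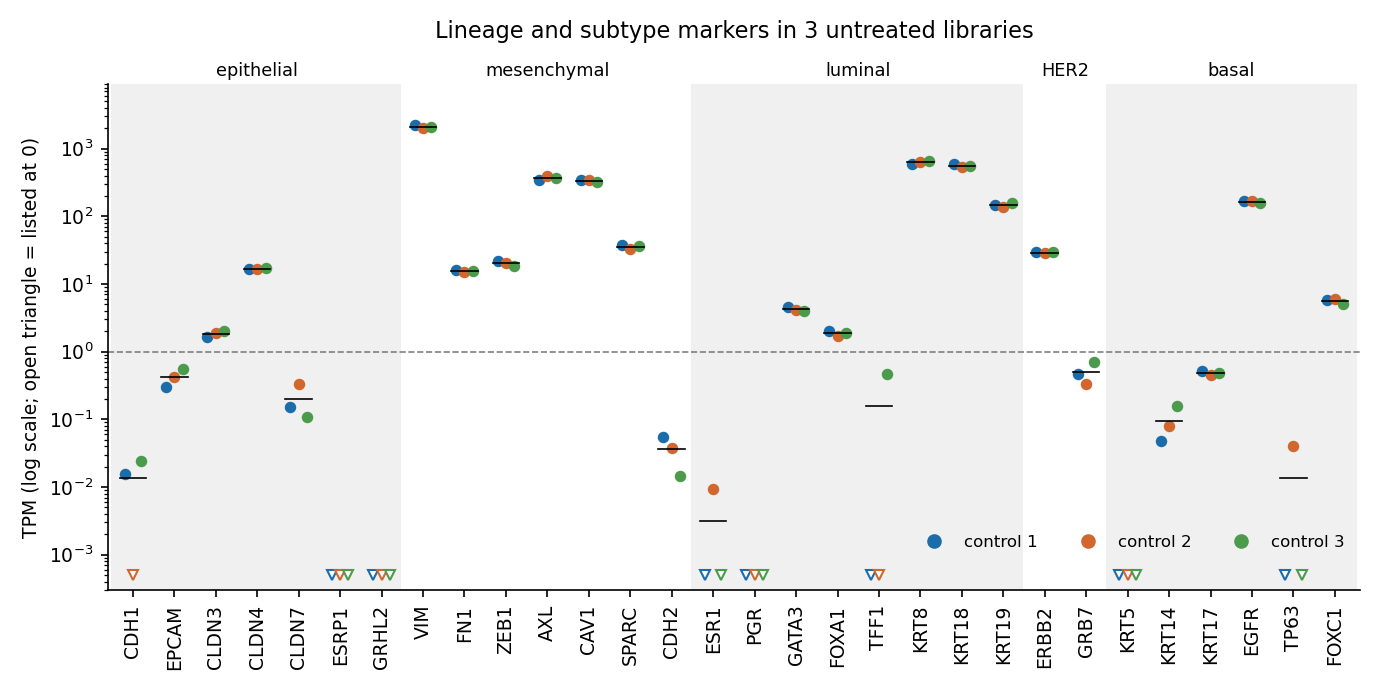
TPM (y axis, log scale) of epithelial, mesenchymal, luminal, HER2 and basal markers, 1 filled point per control library, open triangles where a library lists 0, black lines at means and a dashed line at 1 TPM. VIM, KRT8, KRT18, AXL, CAV1 and EGFR lie above 100 TPM, whereas CDH1, CDH2 and ESR1 lie under 0.1 and GRHL2, PGR and KRT5 are at 0.

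Of the receptors that define triple-negative status, those for oestrogen and progesterone were at or near 0. ESR1, oestrogen receptor alpha (chromosome 6, 151654148 to 152129619), was listed at 0, 0.00930 and 0 TPM, which is 2 estimated counts in control 2. PGR, the progesterone receptor, was listed at 0 in all 3. ERBB2, which encodes HER2, stood at 29.9, 28.3 and 29.3 TPM, rank 4966. Its neighbour GRB7, which is co-amplified with it in HER2-positive tumours, stood at 0.503 TPM. Of 10 genes of that amplicon 7 were members (70%, beside 58.3% of all coding genes). MED1, CDK12, MIEN1 and STARD3 stood at 64.6, 59.3, 46.5 and 45.5 TPM.

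Luminal genes were uneven. The simple-epithelial keratins KRT8 (603, 629 and 664 TPM), KRT18 (588, 529 and 555 TPM) and KRT7 (501, 482 and 559 TPM) were among the 250 most abundant genes, and KRT19 stood at 148. The luminal transcription factors were far lower, with GATA3 at 4.65, 4.13 and 3.98 TPM and FOXA1 at 2.00, 1.72 and 1.9. XBP1, which is also a general secretory factor, stood at 115. Of other luminal markers the zinc transporter SLC39A6 stood at 47.4 TPM, the melanophilin MLPH at 47.0, the carbonic anhydrase CA12 at 15.7 and the secreted AGR2 at 4.35, 4.17 and 3.71. The secreted products TFF3, AGR3, PIP, SCGB2A2 and SCGB1D2 were listed at 0. In all, 15 of 28 luminal genes were members (53.6%), a share near the 58.3% of all coding genes.

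Of 28 basal and myoepithelial genes 13 were members (46.4%, beside 58.3% of all coding genes). KRT15 at 7.39 TPM was the only keratin among these 13. KRT5 and KRT6A were listed at 0, KRT14 stood at 0.0945 TPM and KRT17 at 0.480. TP63, the master regulator of basal epithelium, was read only in control 2, at 0.0411 TPM. EGFR stood at 167, 167 and 155 TPM, the laminin chain LAMB3 at 299, 298 and 305, and FOXC1, a basal-like transcription factor, at 5.82, 6.05 and 4.99. Across the keratin family 10 of 60 genes were members (16.7%), and KRT80, at 52.7 TPM, followed KRT8, KRT18, KRT7 and KRT19.

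Of the 50 genes of the PAM50 breast subtype panel, 40 were members (80%, beside 58.3% of all coding genes). Its proliferation genes led, with UBE2C at 401, 411 and 414 TPM, PTTG1 at 405, CDC20 at 387, 393 and 406 and TYMS at 381. The 10 under 1 TPM were MMP11, GRB7, KRT17, KRT14, ESR1, KRT5, MIA, PGR, SFRP1 and TMEM45B, among them hormone receptors and basal keratins. Among surface genes used to define stem-like breast cancer cells, CD44, the hyaluronan receptor, stood at 260, 249 and 250 TPM and CD24 at 2.02, 2.46 and 1.67. NT5E, the ecto-5'-nucleotidase CD73, stood at 470, 467 and 446. ALDH1A3 stood at 3.02 TPM and ALDH1A1 at 0.00956, and PROM1, THY1 and LGR5 were listed at 0.

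Most listed markers of other cell types lay under 1 TPM, with exceptions in each list, whereas 58.3% of all coding genes were members. Of 18 leukocyte genes 1 was a member, CD68, a lysosomal protein, at 32.4 TPM, and PTPRC, CD3E and MS4A1 were listed at 0. Of 10 endothelial genes 1 was a member, the adhesion molecule ESAM at 73.2, 72.2 and 72.4 TPM, with PECAM1 at 0.117, CDH5 at 0.0999 and VWF at 0.0449. Of 12 fibroblast genes 3 were members, COL5A1 at 12.8, COL1A1 at 8.20 and PDGFRB at 2.48, whereas COL1A2, DCN and FAP were listed at 0. Of 10 melanocytic genes MITF, at 22.3, 21.8 and 21.8 TPM, and PMEL at 1.22 were members, and MLANA, TYR, DCT and SOX10 were at 0. The summed level of each list was 33.9 ± 0.446, 73.6 ± 0.520, 23.6 ± 1.49 and 23.5 ± 0.268 TPM (SD, n = 3) in that order. CD68, ESAM and MITF made up most of the leukocyte, endothelial and melanocytic sums. The fibroblast sum varied the most, at 25.2, 22.2 and 23.5 TPM.

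Receptor tyrosine kinases, which carry growth-factor signals, were members in 24 of 58 cases (41.4%, beside 58.3% of all coding genes). AXL, EPHA2 at 254, 246 and 254 TPM and EGFR stood above 100. MET, the hepatocyte growth factor receptor, followed at 48.3, 48.6 and 44.98 TPM, then RYK at 45.6 and FGFR1 at 39.2. IGF1R stood at 16.7 and ERBB3 at 1.32. RET, ALK, ROS1, FGFR2, FLT3 and the neurotrophin receptors NTRK2 and NTRK3 were listed at 0.

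Of 48 nuclear receptors, 25 were members (52.1%, beside 58.3% of all coding genes) and none reached 100 TPM. PPARG, the adipogenic receptor, stood at 67.2, 67.7 and 68.1 TPM, NR2F2 at 69.1, 66.0 and 63.5, and the glucocorticoid receptor NR3C1 at 48.3, 54.0 and 46.1. The vitamin D receptor VDR stood at 13.1. HOX genes, which record position along the body axis, were mostly under the threshold, with 11 of 39 members (28.2%, beside 58.3% of all coding genes). The rest were 13 genes above 0 and under 1 TPM, and 15 at 0. HOXB9 led at 11.9, 14.0 and 12.8 TPM, followed by HOXC5 at 4.99 and HOXC6 at 4.89. No gene of the HOXA cluster was a member, and HOXA13 at 0.249 was its highest.

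Of 31 protease and coagulation genes 26 were members (83.9%, beside 58.3% of all coding genes). F3, tissue factor, the trigger of coagulation, stood at 553, 600 and 565 TPM, and the urokinase PLAU at 267, 260 and 252 beside its receptor PLAUR at 136. Among the matrix metalloproteinases the membrane-bound MMP14 was the highest at 37.5, 35.2 and 35.2 TPM, MMP1 stood at 2.38 and MMP9 at 0.165, and MMP2 was listed at 0. The inhibitors TIMP1 and TIMP2 stood at 137 and 128.

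Secreted signals were led by the Wnt antagonist DKK1 at 193, 206 and 191 TPM, the only 1 of 38 above 100. IL11, a cytokine linked to bone metastasis, stood at 80.8, 87.3 and 83.7 TPM, the EGFR ligand HBEGF at 79.4, CSF1 at 64.3, FGF5 at 63.9 and LIF at 58.8. The chemokine CCL2 stood at 40.6, 41.8 and 46.7 TPM. Inflammatory cytokines spanned a wide range, with IL18 at 28.8, 31.8 and 31.1 TPM, CXCL8 at 3.95, 4.32 and 4.25, IL6 at 0.866, 0.684 and 0.503, and IL1B at 0.395. HGF, the ligand of MET, was listed at 0.

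All 26 listed proliferation genes were members, beside 58.3% of all coding genes, with a median of 187 TPM. TOP2A, the topoisomerase of dividing cells, stood at 393, 382 and 350 TPM, the replicative helicase subunit MCM7 at 427 and MKI67 at 148, 139 and 138. The cell-cycle kinase CDK4 stood at 231, 245 and 243 TPM and its partner CCND1 at 236, 243 and 232, with CCND2 at 0.0236. The tumour suppressor RB1 was a member at 62.4 TPM, and the growth regulator MYC stood at 94.7, 99.0 and 99.1. RNA levels do not show whether a transcript carries a mutation.

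All 36 DNA damage response genes were members, beside 58.3% of all coding genes, and stood at 6.92 TPM or more. The Ku subunits XRCC6 (838, 797 and 804 TPM) and XRCC5 (410), which bind broken ends, led, followed by APEX1 at 319 and PARP1 at 239. PRKDC, the kinase they recruit, stood at 99.5, 97.7 and 90.3 TPM. The homologous recombination genes BRCA1 and BRCA2 stood at 23.1 and 8.5, the checkpoint kinases CHEK1 at 47.6, ATM at 14.7 and ATR at 12.9, and the ligation factors LIG4 and NHEJ1 at 8.17 and 7.30. With no parental line among the samples, nothing here bears on radioresistance.

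Genes that could handle the study's compounds were expressed unevenly at baseline. Of the melatonin receptors, MTNR1A was listed at 0.0342, 0 and 0 TPM and MTNR1B at 0 throughout, while NQO2, a quinone reductase that binds melatonin, stood at 44.9, 39.2 and 45.5. For nucleosides such as oTR, the equilibrative transporter SLC29A1 stood at 67.6, 71.4 and 71.1 TPM, and the concentrative transporters SLC28A1, SLC28A2 and SLC28A3 were listed at 0. Adenosine kinase, ADK, stood at 103, 99.96 and 94.1 TPM. Of the adenosine receptors ADORA2B was the highest at 57.7, 53.6 and 57.1, with ADORA1 at 3.26 and ADORA2A at 0.331.

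A block of genes on the short arm of chromosome 9 was silent. Between FOCAD and TUSC1 (chromosome 9, 20995956 to 25676388, GRCh38) all 24 protein-coding genes were listed at 0 in all 3 libraries. They were 16 interferon genes and 8 others, among them CDKN2A and CDKN2B, which encode inhibitors of CDK4, MTAP, which salvages methionine, and KLHL9, a ubiquitin ligase adaptor. Of the 31 noncoding genes in the interval 30 were also at 0, and the other reached 0.0284 TPM. MDA-MB-231 is known for homozygous loss of CDKN2A, and RNA alone does not tell a missing gene from a silent one.

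Genes on both flanks of the block were read, though not all of them. FOCAD stood at 1.40, 1.64 and 1.40 TPM and MLLT3 at 5.94, 5.70 and 4.95 on one side, with RPS6 at 1297 further out. On the other side TUSC1 stood at 4.76, 4.92 and 4.81 TPM, CAAP1 at 27.1 and PLAA at 28.6. Some flank genes lay under 1 TPM, with ACER2 at 0.872, SAXO1 at 0.0226 and SLC24A2 at 0.00623 on the FOCAD side. Beyond TUSC1, TEK stood at 0.00785 TPM and LRRC19 was listed at 0. Promoters of CDKN2A, CDKN2B, HACD4, ELAVL2, KLHL9, DMRTA1 and MTAP held 26, 25, 24, 20, 19, 16 and 15 CpG dinucleotides in 300 bases, against a median of 6 over all genes at 0. IZUMO3 held 1, and the interferon genes with an entry held 1 to 3. The starts used for ELAVL2 and CDKN2A lay 24468 and 300 bases from that of the transcript they were matched to.

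**Figure D4:**
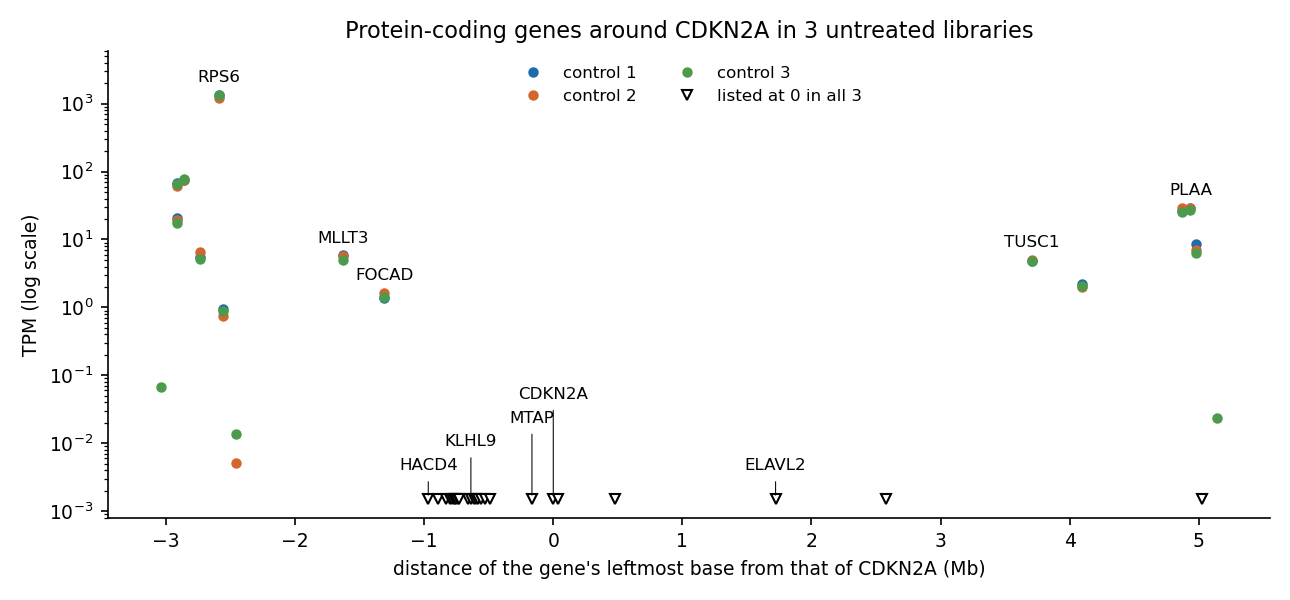
TPM (y axis, log scale) of protein-coding genes by the distance of their leftmost base from that of CDKN2A (x axis, Mb), 1 point per control library, open triangles for genes listed at 0 in all 3. The 24 genes from HACD4 through IZUMO3 are all at 0, between FOCAD at a mean of 1.48 TPM and TUSC1 at 4.83.

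Several gene families were silent elsewhere. In all, 22335 genes (48.1%) were listed at 0 in every library, 4760 of them protein-coding, and 10663 more lay above 0 and under 1 TPM. The longest run of adjacent coding genes at 0 lay on chromosome 11 and held 64 genes, 57 of them olfactory receptors. Further runs held 36 genes on chromosome 21, with 33 keratin-associated proteins, and 35 on chromosome 1 from CRNN to LELP1, a cluster of epidermal differentiation genes. None of 441 olfactory receptor genes, 24 bitter taste receptors, 47 beta-defensins or 337 immunoglobulin segments was a member, beside 28.9% of all genes. Only 2 of 72 protocadherins were, PCDH20 at 5.19 TPM and PCDH1 at 1.82. By chromosome, members made up 44.4% of coding genes on X, 47.8% on 21 and 50.8% on 11, and 64.4% on 16.

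Families of basic cell machinery were nearly complete. All 78 mitochondrial ribosomal protein genes were members, led by MRPL12 at 326 TPM, and so were 37 of 39 proteasome subunits, led by PSMA7 at 764. Of 546 ZNF zinc finger genes 351 (64.3%) were members, a share near the 58.3% of all coding genes, and 92 reached 10 TPM. Of 13 MAGE-A cancer-testis antigens, normally restricted to germ cells, 4 were members: MAGEA3 at 247, 260 and 273 TPM, MAGEA6 at 211 and the copies MAGEA2 and MAGEA2B at 53.3 and 53.2. XAGE1A and XAGE1B stood at 138 and 121. These pairs are near-identical and the split between copies is uncertain.

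In some families a single member led, by margins that differed between families. KRTAP2-3, a hair keratin-associated protein, stood at 28.7, 29.6 and 31.4 TPM, while 82 of 94 genes of its family were listed at 0, and the close copies KRTAP2-4, KRTAP2-2 and KRTAP2-1 make its level uncertain. The transmembrane collagen COL13A1 stood at 125, 126 and 124 TPM and was the highest of 44 collagens, with COL6A1 next at 56.3. Of the 44 collagens, 17 were members (38.6%, beside 58.3% of all coding genes). KCNAB2, a potassium channel beta subunit, stood at 88.6, 89.3 and 91.0 among 95 potassium channel genes of which 13 were members (13.7%). H2BC12, a histone gene, stood at 270, 262 and 264 TPM, and H1-2, the next of 24 members (36.4%) among 66 histone genes, at 96.3.

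Noncoding RNA was a minor share. Of 14763 long noncoding RNA genes 886 were members, and the class held 0.962% ± 0.0152 (SD, n = 3) of summed TPM. Of the listed noncoding genes the mitochondrial 16S ribosomal RNA, RNR2, was the highest at 1855 TPM. The snoRNA host genes SNHG29 (927, 1101 and 1015 TPM), SNHG5 (864) and GAS5 (407) led the long noncoding RNAs listed. NEAT1, the scaffold of paraspeckles, stood at 113, 100.04 and 89.3 TPM and MALAT1, a nuclear RNA, at 23.1, 20.7 and 20.2. MIR31HG and MEG3 were listed at 0, and HOTAIR stood at 0, 0 and 0.0249. Of 541 snoRNA genes 212 were members (39.2%), with SNORD47 the highest at 133 TPM, and nuclear ribosomal RNA held 0.165% ± 0.0270. How RNA was selected is not given in the sources used here, and short RNAs gain a large TPM from few reads.

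Transcript shares were estimated for genes with several listed transcripts. Of 8648 genes at 10 TPM or more, 7089 had at least 2 listed transcripts, and the leading transcript held a median of 64.9% of the gene's TPM. It held over 90% in 1438 genes (20.3%) and under 50% in 2307 (32.5%). The same transcript led in all 3 libraries in 5279 genes (74.5%).

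Some isoform choices were stable. PKM was read mainly as transcript variant 1 (NM_002654), which encodes the M2 isoform of proliferating cells, at 88.0%, 88.1% and 89.2%, while variant 3 (NM_182471), which encodes the adult muscle M1 isoform, held 5.03% ± 0.708 (SD, n = 3). EGFR variant 1 held 99.7%, 98.5% and 98.2%, and MCL1 variant 1, the long anti-apoptotic form, 98.4%, 97.9% and 98.4%. The tropomyosins TPM3 and TPM1 were read mainly as the short cytoskeletal Tpm3.1 (86.3% ± 2.03 of TPM3) and Tpm1.9 (63.7% ± 3.5 of TPM1). Of 27 CD44 transcripts the leading one, variant 4 (NM_001001391), the standard form without variable exons, held 32.3%, 29.9% and 32.1%.

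Other isoform estimates differed between libraries. LMNA stood at 352 ± 3.9 TPM (SD, n = 3), yet its lamin A transcript (NM_170707) held 73.9%, 66.6% and 1.05%, and in control 3 a predicted transcript held 55.8%. ACTN4, an actin cross-linker, stood at 353, 341 and 304 TPM, and its leading transcript held 78.1%, 82.2% and 0%. VIM's reference transcript held 46.0%, 66.0% and 92.2%, the rest being a predicted form. The leading transcript of the tropomyosin gene TPM4 held 39.6%, 33.1% and 24.2%, and a predicted one led in control 3 at 37.5%. Among abundant genes with no transcript above 50% on average, the leading one held 48.8%, 41.9% and 36.6% of NPM1, where another led in control 3 at 44.2%. It held 48.7%, 42.8% and 38.3% of the glycolytic isomerase TPI1, and 22.4%, 26.8% and 16.8% of the splicing factor HNRNPA2B1, where another reached 20.6% in control 3. Such shares come from the authors' apportioning of reads among overlapping transcripts, and 883 of the 7089 leading transcripts (12.5%) were predicted models.

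**Figure D5:**
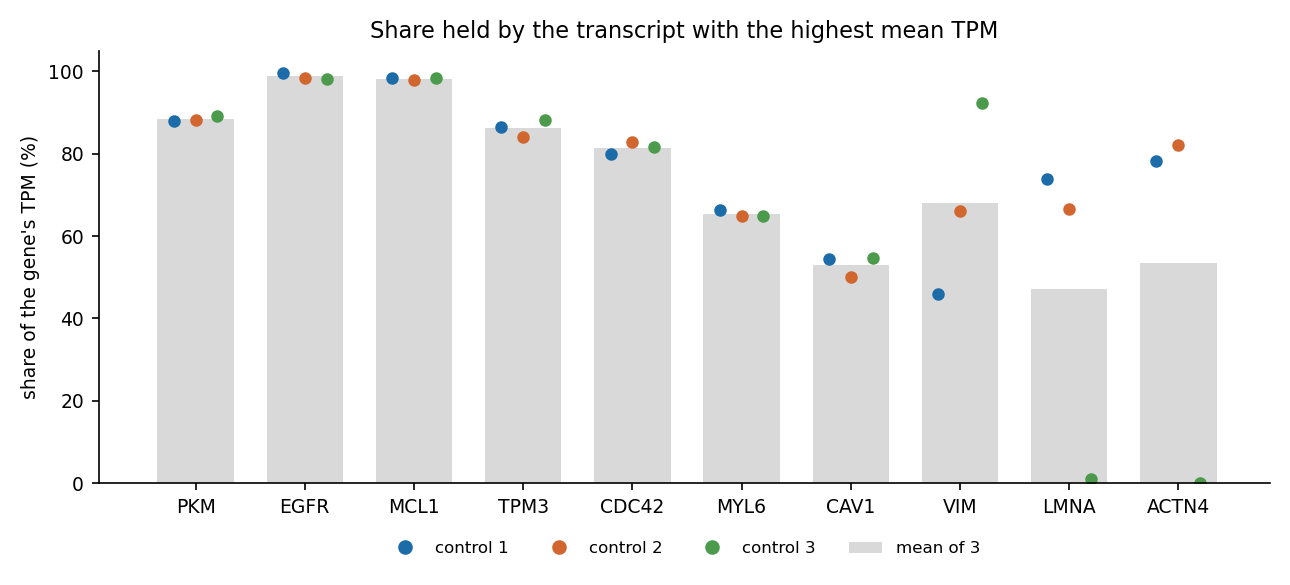
Share of a gene's TPM (y axis, %) held by its transcript with the highest mean TPM, for 10 genes (x axis), 1 point per control library and bars at the mean of 3. The points lie together for PKM, EGFR, MCL1 and CDC42, and control 3 stands apart for LMNA at 1.05% and ACTN4 at 0%.

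The 3 libraries were close for most members. The median coefficient of variation of TPM was 5.71% over all members, 9.61% from 1 to under 10 TPM and 3.48% from 100 to under 1000. Between pairs of libraries 0.372% to 0.477% of genes at 1 TPM or more in both differed by over 2-fold. The 5 most variable genes at 10 TPM or more were BLOC1S5-TXNDC5, KTI12, CENPE, RN7SL4P and RN7SL1. The readthrough gene BLOC1S5-TXNDC5, which overlaps TXNDC5, stood at 34.0, 0.0558 and 26.2 TPM, and KTI12 at 16.7, 16.9 and 3.01. CENPE, a kinetochore motor, stood at 42.8, 17.3 and 16.5 TPM, and RN7SL1, the RNA of the signal recognition particle, at 631, 260 and 267, both highest in control 1.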

How the data were processed

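RNA sequencing of 3 untreated MDA-MB-231/RR libraries was described, with groups taken from the sample titles and columns headed Con read as control. The genes and lists were chosen with earlier results of these data known. Trimmomatic 0.38, HISAT2 2.1.0, Bowtie2, SAMtools 1.9, StringTie 2.1.3b and GRCh38 are named, without roles, per the submitters' processing notes. The sources used here give neither RNA selection nor strandedness, and reads of antisense partners or overlapping genes may be shared. Per the file headers, the authors deposited TPM, FPKM and values headed read counts for genes and transcripts. The deposited counts were taken as estimated counts, because StringTie, which estimates abundance by transcript, is among the named tools, and they served for depth and for alternatives. The deposited TPM values were used as they stand, and the authors' FPKM only as an alternative. The 18 columns of other samples were not used. Some genes are not reported here.

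Gene spans are those of the listed transcripts. Members have a mean TPM of at least 1, and SD is over 3 libraries. No test was made. Named genes are the 25 most abundant, the leading and defining members of each list, the 3 highest of each family, the 3 on each side of the threshold and the 5 most variable. Isoforms are described for a list of genes and for the 5 most abundant genes with no transcript above 50%. Genes named beyond the leaders of lists of over 30 genes (RYK, FGFR1, IL18, IGF1R, ERBB3, VDR, FGF5, LIF, HOXA13 and others) and the CpG values of the CDKN2A block were chosen after seeing them. For single genes, mean shares of transcripts are means over libraries of each transcript's TPM in its gene's TPM. For medians and counts over many genes, a share is the transcript's mean TPM in its gene's mean TPM. Scripts ran in Python 3.11.15 with pandas 2.3.3 and numpy 2.4.6 and were tested on simulated data. Alternatives left out each library and changed the threshold, unit and scaling.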

Additional observations from a re-analysis of the deposited data

How the results depend on the processing

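No paired analysis was possible because 1 group was described without a test. Leaving out each library gave 13411 to 13477 members, 23220 to 23489 genes at 0, 34.8% to 35% of TPM in the 100 most abundant genes, and a median leading-transcript share of 65.1% to 65.7%, the last above the 64.9% from all 3. Thresholds of 0.5, 2 and 5 TPM gave 14734, 12160 and 10389 members, and at 5 TPM the families held 741 members in place of 1212. As shares of estimated counts, which are not per length, the 100 most abundant genes held 19.7%, 930 genes held 50%, mitochondrial mRNAs 4.53% and ribosomal proteins 6.16%. With mitochondrial genes and ribosomal RNA left out, the 100 genes held 28.1%, 511 genes held 50% and ribosomal proteins 16.8%. Over genes at 100 TPM or more the leading transcript held a median of 81.8%. A TOP start within 2 bases of the start site was an alternative chosen after seeing the data. It was held by 47.8% of promoters at 1000 TPM or more and by 11.3% of all promoters. At the exact start these shares were 44.6% and 4.64%. Depth limits what is said of genes listed at 0 and of transcript shares of genes with few counts.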

Other observations

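Genes higher in control 1 were on the median richer in adenine than the rest, a relation noticed after seeing the values. Among 8032 nuclear coding genes at 10 TPM or more with a GENCODE v29 transcript, 24 lay over 0.5 above the mean of the other libraries on the log2 scale in control 1, beside 11 in control 2 and 2 in control 3, and 6, 7 and 20 lay over 0.5 below it. They included the motor CENPE, the Golgi golgins GOLGA4 (54.7, 28.8 and 26.1 TPM), GCC2 (14.2, 9.79 and 8.52) and GOLGB1 (18.1, 12.6 and 11.5), the mitotic kinesin KIF20B (53.8, 29.7 and 27.9), the kinetochore protein CENPF (80.6, 51.8 and 49.2), the nuclear pore protein TPR (68.7, 43.8 and 42.5) and the kinesin receptor KTN1 (238, 170 and 159).

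The longest transcripts of these 24 genes had a median adenine content of 35.3% and a median length of 8423 bases, against 25.8% and 3256 over all 8032. Of the 24, KTI12 at 21.5% and STK24 at 23.9% lay under the median of all. CENPE had the highest adenine content of all, at 41.4%. By adenine content, the median log2 difference of control 1 from the other libraries was -0.03 in the 1163 genes under 20%, 0.03 in the 2253 genes from 28% to under 32%, 0.09 in the 466 from 32% to under 36%, and 0.31 in the 32 at 36% or more, all 32 of which were higher in control 1. In those 32 genes the medians were -0.09 for control 2 and -0.25 for control 3. From 32% to under 36% they were 0.032 and -0.141. From 28% to under 32% they were 0.062 and -0.098, so control 2 lay above control 1 there. The relation was thus not particular to control 1, and control 3 was the lowest in each of these 3 classes. This is a description across genes of the same 3 libraries, and its source was not tested.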
